A study of Mus musculus with 12 samples.

Results

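Arg1, Chil4 and Cd209e, which are linked to alternatively activated macrophages, were followed in whole lung of mice with chronic allergic asthma and of their controls. They were described from 3 of the 56554 transcript probes of an m6A epitranscriptomic array, namely ASMM10EP3A117748595 for Arg1, ASMM10EP3A104906040 for Chil4 and ASMM10EP3A100148643 for Cd209e. The members were chosen from the study's own list of mRNAs with raised m6A-bound signal in asthma, so the measured difference between these same mice picked them. Their bound signal, their unbound signal and the ratio of both are therefore given as a description of these mice, without P-values for asthma against control. The array files hold no gene symbols, and the names came from matching the fold change and P printed in that list to the deposited values, which gave exactly 1 probe for each of its 8 matched mRNAs.

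All mice were female BALB/c, 8 to 10 weeks old per the labels, with 3 mice in each group and whole lung as the tissue. In the asthma group, sensitization used 0.01% ovalbumin (OVA), an egg white protein used as an allergen, injected into the peritoneum on day 0 and again on day 7. The airways were then exposed to an aerosol of 2.5% OVA, 3 times a week over 7 weeks. In controls, PBS took the place of OVA at both steps. Total RNA was split with an antibody to N6-methyladenosine (m6A) into bound RNA (IP, labelled with Cy5) and unbound RNA left in the supernatant (Sup, labelled with Cy3), and both were hybridised to 1 array per mouse. The bound signal of a transcript depends both on how much of it the lung held and on how much of it the antibody took, and in whole lung a change in the number of cells cannot be told apart from a change in RNA per cell.

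Alternative activation is the state that macrophages enter under IL-4 and IL-13, the cytokines of type 2 immunity, through the receptor chain IL-4R alpha and the transcription factor STAT6. Arg1 encodes arginase 1, which splits arginine into ornithine and urea and competes with nitric oxide synthase for its substrate. Chil4 encodes Ym2, a secreted chitinase-like protein without chitinase activity, which airway epithelium can also make. Cd209e encodes a C-type lectin receptor of the family of DC-SIGN, a group of proteins that bind sugars on pathogens. Chil4 is a close copy of Chil3 (Ym1), and Cd209e lies in a family of related genes, so the share of each signal that came from a paralogue was not tested. The cell type behind the label could not be checked either, since the other macrophage markers were not analysed here.

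The promoters are shown because the members were higher together and STAT6, named above, is a factor that binds DNA. RefSeq windows of 250 bases before the transcription start (GRCm38.p6, minus strand, written 5′ to 3′) were found for 2 of the 3 members, Chil4 at chr3:106219480-106219729 and Cd209e at chr8:3854287-3854536. Capitals mark matches to TTCNNNNGAA (a STAT6-type site), TTCNNNGAA (a STAT site), GAGGAA (the core bound by PU.1) or TATAAA (the TATA box), searched on both strands, and no match overlapped another.
Chil4: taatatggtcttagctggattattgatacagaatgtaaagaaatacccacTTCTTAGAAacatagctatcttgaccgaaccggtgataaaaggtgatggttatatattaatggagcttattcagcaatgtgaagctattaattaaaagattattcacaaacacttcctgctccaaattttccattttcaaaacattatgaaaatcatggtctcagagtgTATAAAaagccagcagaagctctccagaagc
Cd209e: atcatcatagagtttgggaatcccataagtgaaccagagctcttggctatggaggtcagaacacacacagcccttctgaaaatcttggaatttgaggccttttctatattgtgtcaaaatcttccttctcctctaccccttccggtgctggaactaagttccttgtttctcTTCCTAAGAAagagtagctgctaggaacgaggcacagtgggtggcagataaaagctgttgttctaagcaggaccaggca

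The Chil4 window held TTCNNNGAA at positions -200 to -192 and TATAAA at positions -31 to -26, counted from the base before the start as -1. The Cd209e window held TTCNNNNGAA at positions -79 to -70. GAGGAA was in neither window. Among all 32851 promoter windows of this length, TTCNNNNGAA was in 5.85%, TTCNNNGAA in 7.02%, GAGGAA in 23.3% and TATAAA in 12.4%. A match describes letters in this window, and binding was not measured.

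Signals are given as log2 of the background-corrected spot intensity relative to the mean of 114 spike-in probes in the same channel, so that 0 is the spike-in mean. The scanner flagged 80.4% to 84.4% of transcript spots per mouse as well above background in Sup, and no transcript spot was saturated. In IP this share was 66.7%, 66.1% and 60.1% in the control mice against 69.5% to 70.0% in the asthma mice, and the part of this gap in the differences given here was not tested. The arrays of the 3 asthma mice and control mouse 1 lay on 1 slide and those of control mice 2 and 3 on another, with 1 scan time for all 6. The number of arrays limits the precision.

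Arg1 was brighter in asthma in both fractions. In mice 1, 2 and 3 of each group, in this order from here on, the bound signal read 2.06, 1.82 and 1.88 for asthma and -0.27, -0.36 and -0.21 for control. Every asthma mouse lay above every control mouse, by at least 2.03 on the log2 scale. How many of all probes also showed no overlap between the groups was not counted, here or for the values below. In the scanner's own units the spot medians were 343.5, 295 and 265 in asthma over a local background of 17, 21 and 20, and 29, 28.5 and 25 in control over a background of 20, 19 and 18. The IP spot was thus 13.3 to 20.2 times its surroundings in asthma, and 1.39 to 1.5 times in control. The scanner flagged it as well above background in all 3 asthma mice and in none of the 3 control mice, which makes the control value an upper bound. With both channels scaled by loess and A-quantile normalization, the measured difference was 4.16-fold (2.06 on the log2 scale). The control spots lay no lower there than the dimmest flagged spots, so no detection floor entered this value. It is open to dye bias because IP was always labelled with Cy5. It holds for that scaling only, since the measured difference was 1.94 with scaling to the 75th percentile of the channel and 1.80 with scaling to the bright spike-in probes alone, those well above background on all 6 arrays, a setting added after the data were seen.

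The unbound Arg1 signal was measured above background in all 6 mice. It was 1.36, 1.12 and 1.23 in asthma and -0.42, -0.54 and -0.44 in control. The means were 1.24 ± 0.12 (SD, n = 3) and -0.47 ± 0.062 (SD, n = 3), which differed by 1.70 (SE 0.09), or 3.25-fold. The groups did not overlap, so that the unbound pool of this mRNA lay higher in asthma along with the bound pool. The control Sup spots were dim although flagged, with medians of 21.5, 25 and 19.5 over a local background of 12, 13 and 12. The size of the fold therefore depended on the background correction. With an offset of 0 in that correction, a setting added after the data were seen, it was 11.6-fold.

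Chil4, the chitinase-like gene, was the brighter case in that every spot of every mouse could be measured. Its IP signal was 3.46, 3.40 and 4.07 in asthma and -0.01, 0.12 and 0.26 in control, with spot medians of 973.5, 948.5 and 1332.5 against 42, 55 and 50. The means of 3.64 ± 0.37 and 0.12 ± 0.13 (SD, n = 3 each) differed by 3.52 (SE 0.20), or 11.4-fold. Asthma mouse 3 was the highest, and the gap between the lowest asthma mouse and the highest control mouse was 3.14. The Sup signal was 3.76, 3.44 and 4.41 in asthma and 0.63, 0.66 and 0.47 in control. Sup means of 3.87 ± 0.50 and 0.59 ± 0.10 (SD, n = 3 each) differed by 3.28 (SE 0.24), or 9.72-fold. Asthma mouse 3 was the highest in Sup as well, so the mice kept 1 order within the asthma group in both fractions, with mouse 2 the lowest.

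Cd209e, the lectin receptor gene, had the tightest IP values of the 3 members in asthma. They were 1.59, 1.62 and 1.59, against -0.41, -0.33 and -0.38 in control. The IP spot medians were 239, 250 and 210 in asthma and 23, 31 and 18 in control, and in control mouse 3 the spot equalled its local background of 18. As for Arg1, the IP spot was well above background in all asthma mice and in no control mouse. With the same loess and A-quantile scaling asthma was at least 3.54-fold higher (1.82 on the log2 scale). For this limit, control spots below the dimmest flagged value were set to that value. The limit holds for that scaling only, the measured difference being 1.71 with the 75th percentile and 1.57 with bright spike-in probes. The Sup signal, above background in all 6 mice, was 1.38, 1.55 and 1.38 in asthma and -0.47, -0.58 and -0.45 in control. Its means of 1.44 ± 0.099 and -0.50 ± 0.071 (SD, n = 3 each) differed by 1.94 (SE 0.09), or 3.84-fold, with no overlap. Here too the control Sup spots were dim, with medians of 19.5, 23 and 20 over a local background of 12, 13 and 13. With an offset of 0 the Sup difference was 15.7-fold.

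**Figure D1:**
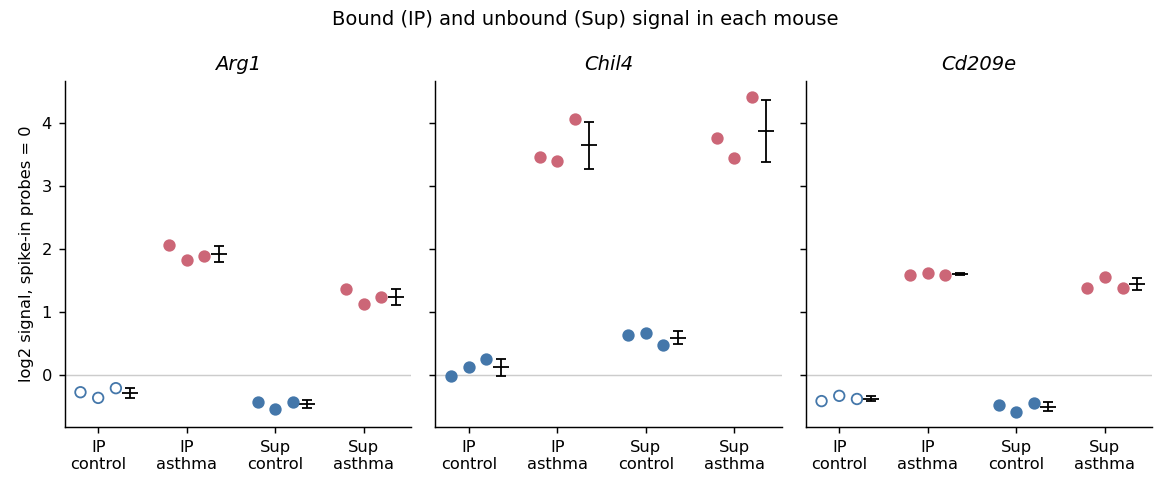
The log2 signal of Arg1, Chil4 and Cd209e relative to the spike-in mean (vertical axis) is plotted for each control (blue) and asthma (red) mouse in the IP and Sup fractions, with open circles for spots not well above background and black bars for mean ± SD (n = 3). All asthma points lie above all control points in both fractions, and the open circles are the control IP spots of Arg1 and Cd209e.

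**Figure D2:**
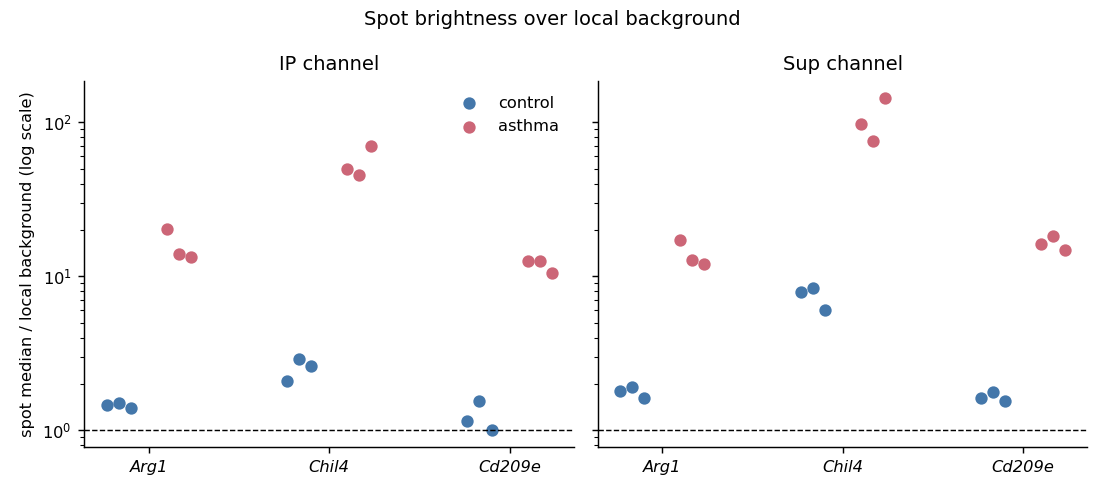
The spot median divided by its local background (log axis) is plotted for each mouse in the IP and Sup channels, control in blue and asthma in red, with a dashed line where both are equal. Control IP spots of Arg1 and Cd209e sit between 1 and 1.55, while those of Chil4 sit between 2.10 and 2.89.

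As a description, the fitted differences were 2.20 (SE 0.11) in IP for Arg1, from means of 1.92 ± 0.12 and -0.28 ± 0.077, and 1.97 (SE 0.09) for Cd209e, from 1.60 ± 0.018 and -0.38 ± 0.042 (SD, n = 3 each), both computed against control spots near background. The study's thresholds, a change of over 1.5-fold at P below 0.05 without adjustment, were applied here to limma fits of these values. By this rule 6.86% of the 37359 probes tested in IP were higher in asthma, and 0.584% of the 45243 tested in Sup. All 3 members met this rule in both fractions, but the contrast had chosen them and nothing is read from that count. Arg1 and Cd209e also entered the IP fit through the asthma group alone, because a probe needed to be well above background in all 3 mice of at least 1 group. Ranked by the size of the measured difference, Chil4 stood at place 22 in IP, where Arg1 and Cd209e have no defined place because their control spots give only a bound. In Sup, Chil4, Arg1 and Cd209e stood at places 11, 67 and 45. The median difference over all probes tested was 0.15 in IP and -0.07 in Sup.

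The values that chose the members were the deposited log2 signals. There the IP signal of Arg1 was 1.93, 1.63 and 1.84 in asthma and -3.33, -2.96 and -2.82 in control. Chil4 had 3.63, 3.45 and 4.33 against -1.34, -1.07 and -0.24, and Cd209e had 1.34, 1.39 and 1.56 against -4.71, -2.55 and -4.13. The asthma values were close to those above for each member. The control values were lower for each member, by more for Arg1 and Cd209e than for Chil4, and those of Cd209e spread over more than 2 log2 units. The IP differences were 4.84, 4.69 and 5.23 for Arg1, Chil4 and Cd209e on this scale, with the control spots of Arg1 and Cd209e again at dim levels that have no order. With an offset of 0 in the background correction, a setting added after the data were seen, they were 3.88, 4.47 and 4.10. The direction was the same under each of these settings, while the size of the difference moved with the handling of background, more for Arg1 and Cd209e than for Chil4.

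**Figure D3:**
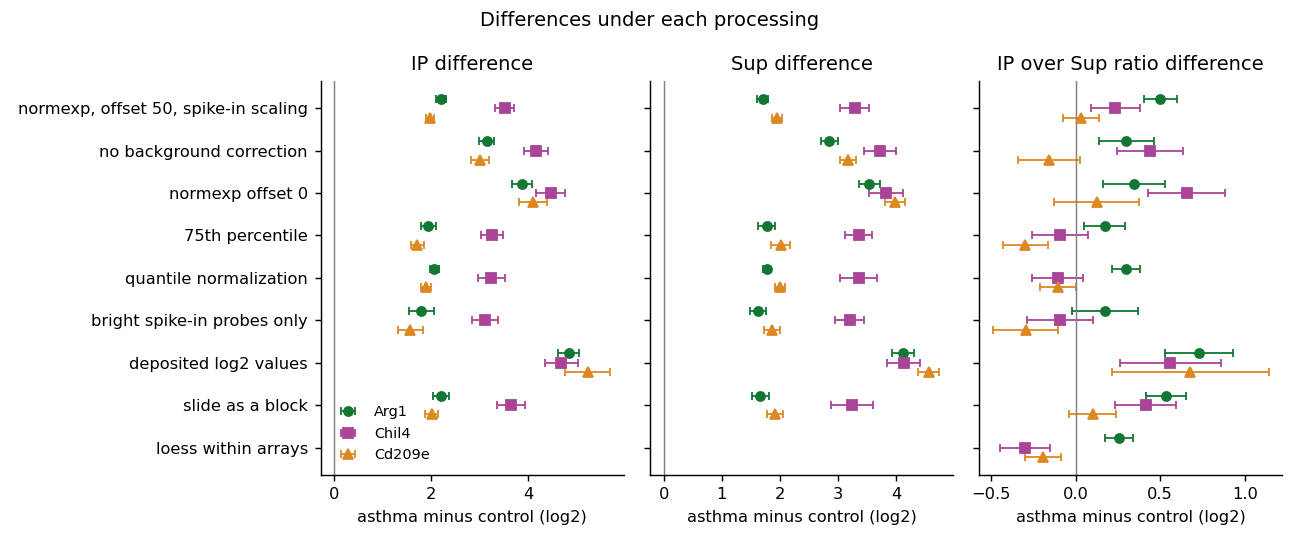
The asthma minus control difference (log2, horizontal axis, bars are SE) of Arg1, Chil4 and Cd209e is plotted under each processing for IP, Sup and their ratio. IP and Sup differences are above 0 in every row, whereas the ratio differences of Chil4 and Cd209e lie on both sides of 0.

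The IP over Sup ratio within each mouse asks whether the bound signal changed beyond the unbound one. For Arg1 it was 0.70, 0.70 and 0.65 in asthma and 0.15, 0.17 and 0.23 in control. The Arg1 groups did not overlap, with means of 0.68 ± 0.031 and 0.18 ± 0.039 (SD, n = 3 each) and a difference of 0.50 (SE 0.10), or 1.41-fold. The share of all probes without such overlap was not counted. Every control ratio of Arg1 rested on an IP spot that was not well above background. The median ratio difference over all 37077 probes tested was 0.25. In the direction of asthma, 12.1% of probes passed the same thresholds in the limma fit, so a higher ratio was common on these arrays.

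For Chil4 the ratio was -0.30, -0.04 and -0.35 in asthma and -0.64, -0.54 and -0.21 in control. Control mouse 3 lay above 2 of the asthma mice, so the groups overlapped, and the means of -0.23 ± 0.17 and -0.46 ± 0.22 (SD, n = 3 each) differed by 0.24 (SE 0.14). For Cd209e the ratio was 0.20, 0.06 and 0.20 in asthma and 0.06, 0.25 and 0.07 in control. The highest and the lowest of these 6 values were both from control mice, and the means of 0.16 ± 0.081 and 0.13 ± 0.11 (SD, n = 3 each) differed by 0.03 (SE 0.11). On this scale none of the 3 members reached a 1.5-fold difference in the ratio. For Arg1 and Cd209e the control IP signal is an upper bound, but their control Sup spots were dim too, so the ratio difference is not a minimum. Without background correction it was 0.30 for Arg1 and -0.16 for Cd209e. The deposited values gave ratio differences of 0.73, 0.56 and 0.68 for Arg1, Chil4 and Cd209e, past 1.5-fold for Arg1 and Cd209e. An offset of 0 gave 0.34, 0.66 and 0.12, past 1.5-fold for Chil4. For Chil4 and Cd209e the sign depended on the scaling. Under scaling to the 75th percentile of the channel, the ratio differences were 0.17 for Arg1, -0.093 for Chil4 and -0.30 for Cd209e, with the median of all probes moved to -0.08.

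**Figure D4:**
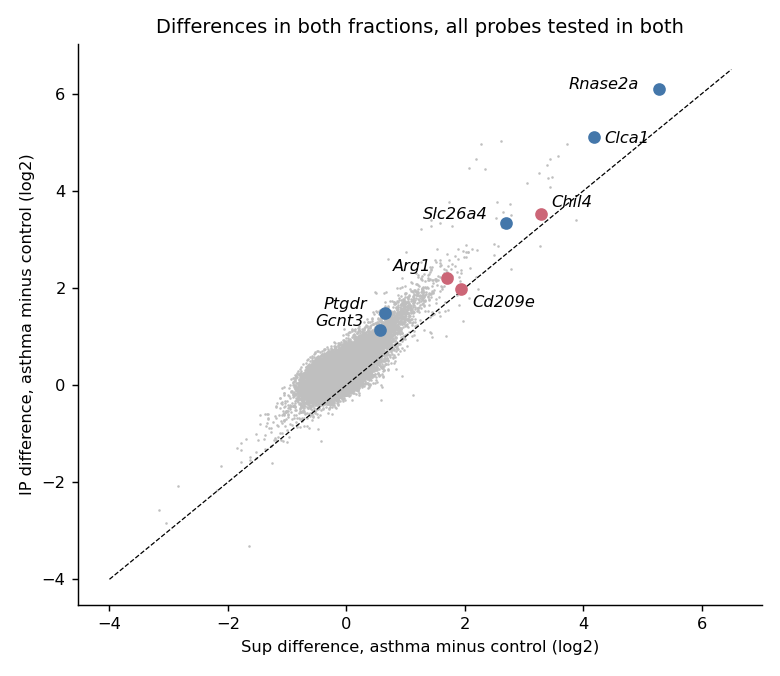
Each grey point is a probe tested in both fractions, with its Sup difference on the horizontal and its IP difference on the vertical axis (asthma minus control, log2), with the members in red, the other named mRNAs in blue and equality as a dashed line. Chil4 and Cd209e lie close to the line, and Arg1 lies 0.50 above it.

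The standing of each transcript between the bound and the unbound fraction, averaged over all 6 mice, does not use the difference between the groups, although it contains the asthma IP values that entered the selection. It was tested for Chil4, which was well above background in both channels in all 6 mice. For Arg1 and Cd209e, which passed the filter through the asthma group alone and whose control ratios rest on dim IP spots, the values are a description. After loess within each array, 0 is the ratio of a typical probe of the same brightness. IP carried Cy5 and Sup carried Cy3 on every array. A dye effect particular to a probe therefore cannot be told apart from its place between the fractions. Of the 37077 probes tested, 40.4% were above 0 and 37.0% below 0 at an adjusted P under 0.05 (limma, Benjamini-Hochberg over all probes), so a call by itself was the common case. Replicates were separate samples of a group, and these P-values measure only the spread between them.

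Chil4 lay on the unbound (Sup, Cy3) side of 0. Its loess ratio was -0.81, -0.63 and -0.91 in asthma and -0.79, -0.49 and -0.18 in control, below 0 in all 6 mice. The mean was -0.63 (SE 0.07, 95% interval -0.80 to -0.47, adjusted P = 1.94e-05 by limma), at percentile 13.9 of the probes tested. The control mice alone averaged -0.49 ± 0.31 and the asthma mice -0.78 ± 0.14 (SD, n = 3 each). For Arg1 the loess ratio was 0.33, 0.29 and 0.28 in asthma and 0.02, 0.05 and 0.07 in control. The asthma mean was 0.30 ± 0.024 and the control mean 0.04 ± 0.024 (SD, n = 3 each), the latter from IP spots that were all dim.

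For Cd209e the loess ratio was -0.15, -0.36 and -0.16 in asthma and -0.08, 0.12 and -0.13 in control, with control mouse 2 as the only value above 0. The asthma mean was -0.22 ± 0.12 and the control mean -0.03 ± 0.13 (SD, n = 3 each). In the 3 asthma mice, where every spot of the members was well above background, Arg1 was thus above 0 and Chil4 and Cd209e below 0 in each mouse, although the signal of each gene was higher in asthma in both fractions. For Cd209e this sign depended on the scaling, since its ratios relative to the spike-in probes were 0.20, 0.06 and 0.20 in the same mice.

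**Figure D5:**
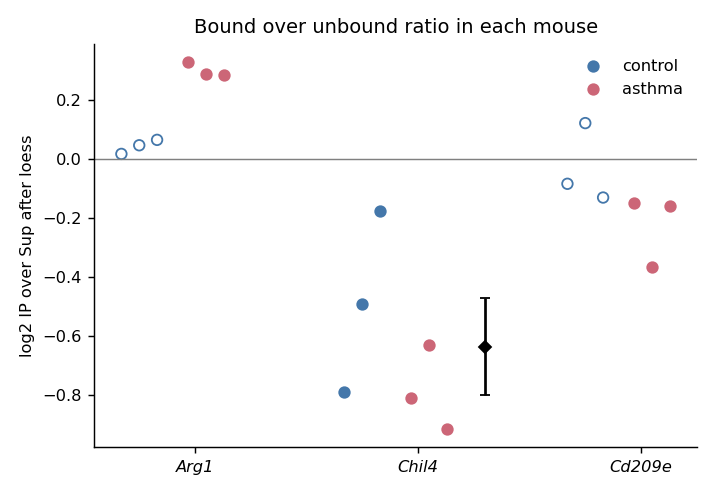
The log2 IP over Sup ratio after loess (vertical axis) is plotted for each control (blue) and asthma (red) mouse, with open circles where the IP spot was not well above background and a black diamond for the mean of all 6 mice with its 95% interval for Chil4, the gene tested. Chil4 lies below 0 in all 6 mice, and the filled points of Arg1 lie above and those of Cd209e below 0.

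The members were selected for a raised signal, and across the 6 mice they followed each other closely. In IP, Pearson's r was 0.988 between Arg1 and Chil4, 0.996 between Arg1 and Cd209e, and 0.991 between Chil4 and Cd209e, and in Sup it was 0.984, 0.991 and 0.973 for the same pairs. The mice form 2 separate groups, so these values mostly describe the gap between asthma and control and are given without a test. In IP the control spots of Arg1 and Cd209e were not well above background, so no probes are ranked by IP likeness to them. Of the 37359 probes in IP, r with Chil4 was above 0.99 for 40. In Sup, r with Arg1, Chil4 and Cd209e was above 0.99 for 7, 16 and 9 of 45243. Among the named mRNAs of the study's list, the closest to Chil4 was Slc26a4, the gene of the anion exchanger pendrin, with r of 0.999 in IP and 0.997 in Sup. The closest to Cd209e in Sup was Rnase2a, a gene of the eosinophil ribonuclease family, with r of 0.994. Rnase2a was also the closest named mRNA to Arg1 in Sup, with r of 0.993.

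The other mRNAs named from the same list were higher in asthma by differences of the same kind, chosen in the same way. The IP and Sup differences were 6.10 and 5.28 for Rnase2a, 5.10 and 4.18 for Clca1, a goblet cell gene, and 3.34 and 2.69 for Slc26a4. They were 1.14 and 0.57 for Gcnt3, a mucin glycosyltransferase gene, and 1.49 and 0.65 for Ptgdr, the prostaglandin D2 receptor gene, both with control spots not well above background in either fraction. For Clca1 this held for control mouse 1, and the control IP values ran from -0.33 in that mouse to 1.98 in control mouse 3. In each of these 5 mRNAs the IP difference exceeded the Sup difference by 0.57 to 0.92, against 0.50, 0.24 and 0.03 for Arg1, Chil4 and Cd209e. The highest of these values, 0.92 for Clca1, had an SE of 0.31. Whether the members differ from them in this was not tested, because the same contrast chose all 8.

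Within the slide that held all asthma mice, the asthma mean exceeded control mouse 1 by 2.19, 3.65 and 2.01 in IP and by 1.66, 3.24 and 1.91 in Sup for Arg1, Chil4 and Cd209e. These within-slide values were close to those over both slides, which were 2.20, 3.52 and 1.97 in IP and 1.70, 3.28 and 1.94 in Sup. The within-slide ratio differences were 0.53, 0.41 and 0.10, against 0.50, 0.24 and 0.03 over both slides. The within-slide values rest on 1 control mouse, and both sets share it and the asthma mice. An effect of the slide was therefore not tested.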

How the data were processed

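Bound and unbound lung RNA of 6 mice (3 per group) was hybridised to 6 arrays, which were read with Agilent Feature Extraction 11.0.1.1 by the authors, who deposited spot intensity, local background and flags for both channels. The 2 files of each mouse held the same values and were counted as 1 array. The authors also deposited log2 values, each column of which equalled log2 of the scanner's processed signal less 1 constant. The study's methods name the mean log2 of spike-in RNA as the scale, and the constants were not traced to particular probes here. Here median intensities were corrected with normexp (limma 3.58.1, R 4.3.3, offset 50), put on the log2 scale and scaled to 114 spike-in probes per channel. Non-uniform spots were left out. A probe entered a fit where the scanner flagged it as above background (its stricter flag) in all 3 mice of either group, and a ratio needed this in both channels. The fits were run on simulated data with independent noise and an added shift. Dim spots, slides and dyes were not simulated, so those limits were not tested. The mean loess ratio was planned as a test for all 3 genes but is void for Arg1 and Cd209e, which entered through the asthma group alone. Dyes were not swapped. The numbers of the mice were not treated as pairs. Deviations from group means correlated between mice of the same number at -0.371, 0.395 and 0.245 in IP. In Sup they correlated at -0.347, 0.136 and 0.258, and these mixed values cannot settle whether the numbers pair the mice.

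The members and lists were chosen with earlier results of these data known. The named genes were the members and 5 other mRNAs of the study's list of raised mRNAs, and each matched 1 probe. The remaining mRNAs of that list were not put through the matching. Lists of alternative activation, cytokine, arginine, chitinase and Cd209 family genes and the cell type markers need probe names and were not analysed here. Other backgrounds, scalings, filters, blocks and subsets of mice were tried.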

Additional observations from a re-analysis of the deposited data

How the results depend on the processing

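The IP and Sup differences of Arg1, Chil4 and Cd209e (values in this order throughout) stayed above 0 in every setting run, while their size moved. Without background correction they were 3.15, 4.16 and 3.01 in IP, 2.85, 3.72 and 3.17 in Sup, and 0.30, 0.44 and -0.16 in the ratio. With an offset of 0 they were 3.88, 4.47 and 4.10 in IP, 3.53, 3.82 and 3.98 in Sup, and 0.34, 0.66 and 0.12 in the ratio. The deposited log2 values gave 4.84, 4.69 and 5.23 in IP, 4.11, 4.13 and 4.55 in Sup, and 0.73, 0.56 and 0.68 in the ratio. Scaling to the 75th percentile gave 1.94 for Arg1 and 1.71 for Cd209e in IP, and ratio differences of 0.17, -0.093 and -0.30. Quantile normalization gave 2.07 for Arg1 and 1.90 for Cd209e in IP, and ratio differences of 0.30, -0.11 and -0.10. Scaling to the spike-in probes well above background on all 6 arrays (24 in IP, 52 in Sup), which like the offset of 0 was chosen after seeing the data, gave 1.80, 3.11 and 1.57 in IP, and ratio differences of 0.17, -0.091 and -0.29. Loess gave ratio differences of 0.26, -0.30 and -0.19. The median IP difference of all probes, 0.15, became -0.11 with the 75th percentile, -0.01 with quantile normalization and -0.25 with the bright spike-in probes. The slide as a block gave 2.01 for Cd209e in IP. The ratio difference of Cd209e ranged from -0.0022 (without control mouse 1) to 0.095 with 1 mouse left out. The cause of these changes was not tested.

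The loess mean of Chil4 stayed below 0 and called in every setting run, between -0.81 without background correction and -0.49 with median centring, and at -0.63 with the replicate block (adjusted P = 0.000151 by limma), which changed no difference between the groups. The loess mean of Cd209e, a description, was -0.13 as reported here and with the replicate block or without the empirical Bayes step, -0.00078 with median centring and -0.38 with processed signals. It ranged from -0.16 to -0.091 with 1 mouse left out, and the slide as a block (-0.11) is for this mean the same fit as leaving out control mouse 1. Dim control IP spots limit what can be said of Arg1 and Cd209e.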
